A study of Mus musculus with 4 samples.

Results

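The protein components of the cytosolic ribosome were followed in mouse erythroleukemia (MEL) cells before and after chemical induction of erythroid differentiation. Members were the rows of the deposited expression table whose symbol named 1 cytosolic ribosomal protein (Rpl or Rps with its number, Rplp0, Rplp1 or Rpsa) and no other gene. Of 47935 loci in the table, 59 met this rule and held 58 genes, 32 of the large subunit and 26 of the small subunit. Rps10 had 2 loci, and its second locus is given apart. A further 18 ribosomal protein genes lay in loci that the table labels with several gene symbols. They were left out by the rule and are described beside the members, as are 12 rows of paralogs and gene copies that the symbol pattern also matched.

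The study compared 2 samples of DMSO-induced MEL cells with 2 samples of uninduced MEL cells by RNA-seq of total RNA depleted of ribosomal RNA. MEL cells are a transformed line of erythroid precursors from mice infected with Friend virus. Dimethyl sulfoxide at 1.5% of the medium makes them enter an erythroid-like programme, and both groups were otherwise kept in the same serum-containing DMEM. The line is a single leukemic model of erythroid differentiation, and the sources used here do not give the length of the exposure to DMSO. Nor did the labels say that the replicates came from separate cultures. The p-values of limma, the main test below, therefore set the difference between groups against a spread between libraries that may be technical. For each gene limma draws that spread towards the spread of other loci of similar level.

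Ribosomes are assembled from ribosomal RNA and about equal amounts of each ribosomal protein, 1 copy of nearly every protein per ribosome. In vertebrates nearly all ribosomal protein mRNAs begin with a C followed by an unbroken run of C and T (a terminal oligopyrimidine or TOP motif), through which their translation is controlled together by the mTOR pathway and the RNA-binding protein LARP1. Erythroid precursors depend on a high supply of ribosomes: inherited loss of 1 copy of any of many ribosomal protein genes causes Diamond-Blackfan anemia, a red cell aplasia, in humans, and loss of a copy of RPS14 contributes to the anemia of the 5q- syndrome.

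The start-site regions of 5 members are shown because they carry, or lack, a run of C and T near the annotated start. That of Rpl22l1 is shown because it is the paralog that was called lower. Such a run is not in itself a TOP motif, which has to begin with a C at the first base of the transcript. Each sequence is from RefSeq (GRCm38.p6), runs 5′ to 3′ on the strand of the gene from 80 bases before the annotated start through the first 20 bases of the transcript, and has any run of at least 7 C or T within 10 bases of the start in capitals.
Rps6, chr4:86857348-86857447, minus strand: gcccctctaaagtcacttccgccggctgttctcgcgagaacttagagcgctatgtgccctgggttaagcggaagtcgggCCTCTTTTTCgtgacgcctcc
Rps27, chr3:90213629-90213728, minus strand: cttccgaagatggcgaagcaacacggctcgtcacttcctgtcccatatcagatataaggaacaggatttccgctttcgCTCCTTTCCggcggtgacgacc
Rpl31, chr1:39367771-39367870, plus strand: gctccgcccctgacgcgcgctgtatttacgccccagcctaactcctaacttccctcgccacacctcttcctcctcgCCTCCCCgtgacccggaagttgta
Rpl23, chr11:97782420-97782519, minus strand: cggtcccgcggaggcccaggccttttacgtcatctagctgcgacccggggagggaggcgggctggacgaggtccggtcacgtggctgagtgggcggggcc
Rpl22, chr4:152325646-152325745, plus strand: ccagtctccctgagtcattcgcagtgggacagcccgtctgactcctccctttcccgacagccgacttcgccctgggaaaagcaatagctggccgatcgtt
Rpl22l1, chr3:28805428-28805527, plus strand: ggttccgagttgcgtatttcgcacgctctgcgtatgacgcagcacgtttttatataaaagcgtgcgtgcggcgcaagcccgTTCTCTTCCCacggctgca

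A start region was found for 44 of the 58 members. A run of at least 7 C or T on the sense strand, within 10 bases of the annotated start, was present in 17 of the 44 (38.6%), against 12.2% of the 32851 mouse promoters of the RefSeq table scanned in the same way, where a gene can have several. On the opposite strand the same window held such a run in 2 of 44 members (4.55%), against 13.3% of all promoters. The core CCGGAAG, bound by ETS factors such as GABP, was found on either strand of the 300-base promoter in 18 of 44 members (40.9%), against 8.86% of all promoters. AAGATGGC, the core of the YY1 site, was found in 3 (6.82% against 2.75%), and TATAAA in 4 (9.09% against 13.6%). CCGGAAG and AAGATGGC can overlap by the letters AAG. A match is a string of letters and not a shown binding site. In Rpl23 and Rpl22 no run fell in the window, which says only that such letters are not within 10 bases of the annotated start.

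Ribosomal protein mRNAs were among the most abundant in the cells of both groups. Levels are in FPKM, a fragment count divided by the length of the transcript in kilobases and by the mapped fragments of the library, which allows genes to be set beside each other. All 58 members passed the filter of at least 1 FPKM in at least 2 samples. Of them, 56 had at least 500 FPKM in all 4 samples, 47 had at least 1000, and 32 were among the 100 most abundant loci of the table. The median member had 1722 and 2198 FPKM in DMSO-induced replicates 1 and 2, against 1791 and 1997 FPKM in uninduced replicates 1 and 2. The 2 induced values enclosed the 2 uninduced ones.

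**Figure D1:**
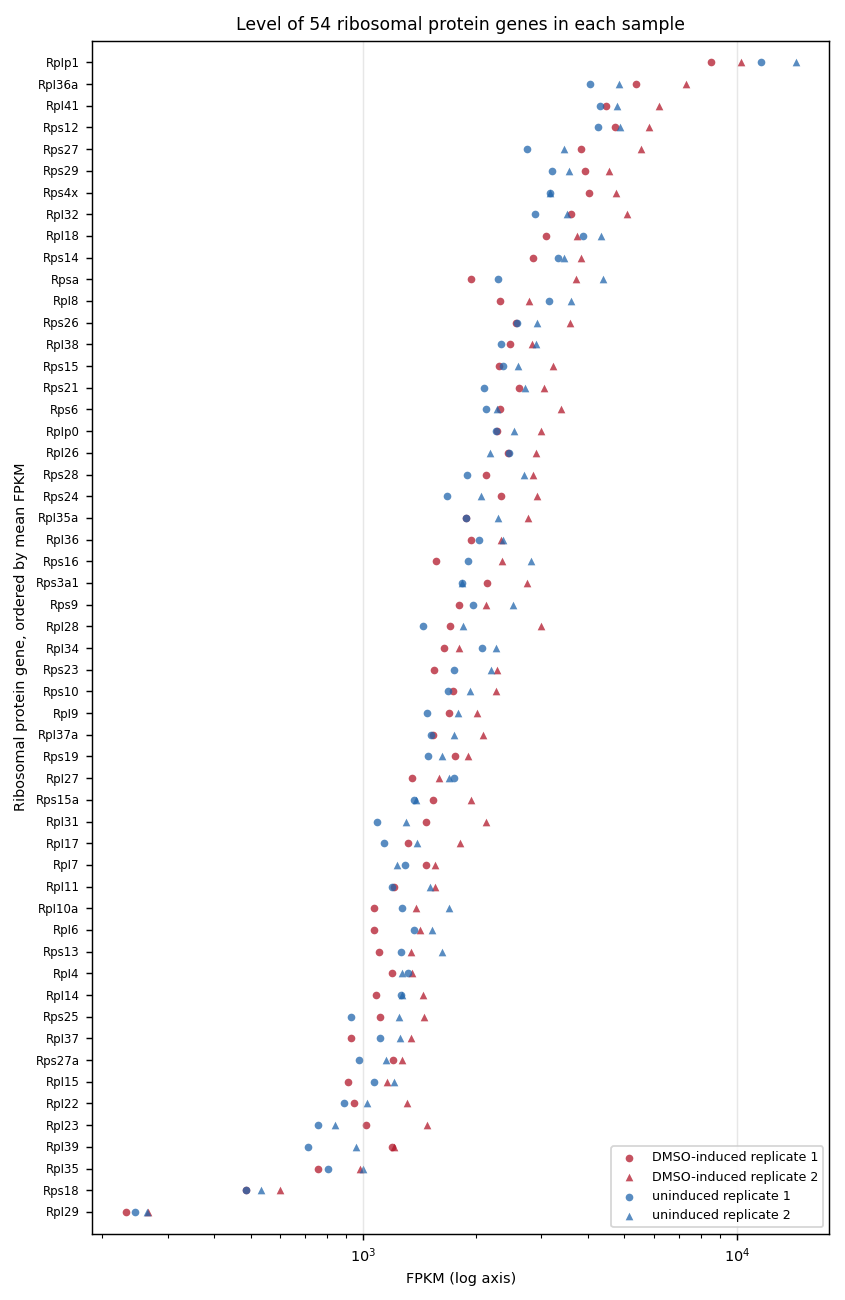
FPKM on a log axis of 54 ribosomal protein genes in each of the 4 samples (red, DMSO-induced; blue, uninduced; circles, replicate 1; triangles, replicate 2), ordered by mean FPKM. All but 2 genes reach 500 FPKM in every sample, the symbols of the groups interleave, and Rplp1 at the top and Rpl29 at the bottom stand apart from the rest in all 4 samples.

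At the top of the range stood Rplp1 (chr9:61913284-61914542, minus strand, GRCm38), an acidic protein of the stalk that recruits elongation factors. It had 8526 and 10250 FPKM in DMSO-induced cells, against 11566 and 14380 FPKM in uninduced cells. Both induced values were below both uninduced ones. Next in mean level were Rpl36a, Rpl41, Rps12 and Rps27. Rpl36a, a large-subunit protein, had 5366 and 7287 FPKM in DMSO-induced cells, against 4033 and 4826 FPKM in uninduced cells. Rpl41, the smallest protein of the ribosome, had 4462 and 6201 FPKM in DMSO-induced cells, against 4300 and 4786 FPKM in uninduced cells. For Rpl41 the groups overlapped, and for Rpl36a they did not. Rps12 of the small subunit had 4720 and 5828 FPKM in DMSO-induced cells, against 4239 and 4867 FPKM in uninduced cells, which also overlapped.

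At the bottom was Rpl29, whose product is dispensable for the life of the mouse. It had 232 and 266 FPKM in DMSO-induced cells, against 245 and 265 FPKM in uninduced cells, and the groups overlapped. Rps18, of the head of the small subunit, had 487 and 600 FPKM in DMSO-induced cells, against 485 and 534 FPKM in uninduced cells. These levels overlapped between the groups as well. Rpl35, which lies near the exit tunnel, had 757 and 980 FPKM in DMSO-induced cells, against 804 and 996 FPKM in uninduced cells. Mean levels of the 58 genes ran from 252 to 11181 FPKM with a median of 1974, although the proteins occur in the ribosome in near-equal number. The sources used here do not say how the authors' counting divided reads among the many processed copies of these genes in the mouse genome, so the level of a single gene is uncertain where copies are near-identical.

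The main comparison asked whether the abundance of any ribosomal protein mRNA differed between DMSO-induced and uninduced cells. None of the 58 rose or fell past an adjusted p of 0.05 (limma on log2(FPKM + 1) over 12890 loci, Benjamini-Hochberg). Over all loci tested, 11.5% were called higher in DMSO-induced cells and 14.7% lower, or 26.2% in either direction. Among the 558 loci with a mean of at least 200 FPKM, a level that all members reach, 21.5% were called. At an unadjusted p of 0.05, 0 members passed, against 5556 of the 12890 loci (limma). The median standard error (SE) of the log2 change was 0.302 for the members, against 0.238 over all loci tested. limma draws each SE towards that of other loci of similar level, so these values are not the members' own replicate spread alone. The smallest adjusted p among the members was 0.169, for Rpl23. All 58 changes were smaller than 2-fold, as were 74.9% of those of all loci. In bulk RNA, fewer cells expressing a gene and less of its RNA per cell cannot be told apart.

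The log2 changes, DMSO-induced over uninduced, had a median of 0.14 over the 58 members, beside 0.03 over all loci tested and -0.11 over the loci of at least 200 FPKM. Their SD was 0.27, against 1.05 over all loci and 1.63 over the abundant ones. The abundant loci include the members themselves and loci listed at 0 FPKM in a sample, and their changes ran from -11.3 to 7.8. Those of the members ran from -0.46 for Rplp1 to 0.62 for Rpl23, with 37 above 0 and 21 below. The median rested on single samples: it was -0.08 without DMSO-induced replicate 2, 0.31 without DMSO-induced replicate 1, 0.04 without uninduced replicate 1 and 0.23 without uninduced replicate 2. The 95% intervals show how much change remained possible. For 30 of the 58 the interval lay wholly within 2-fold in either direction (33.7% of all loci did), and for 28 it reached past 2-fold. The lowest bound was -1.53 and the highest 1.51 on the log2 scale. A test that calls no member therefore does not show that their levels were equal.

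**Figure D2:**
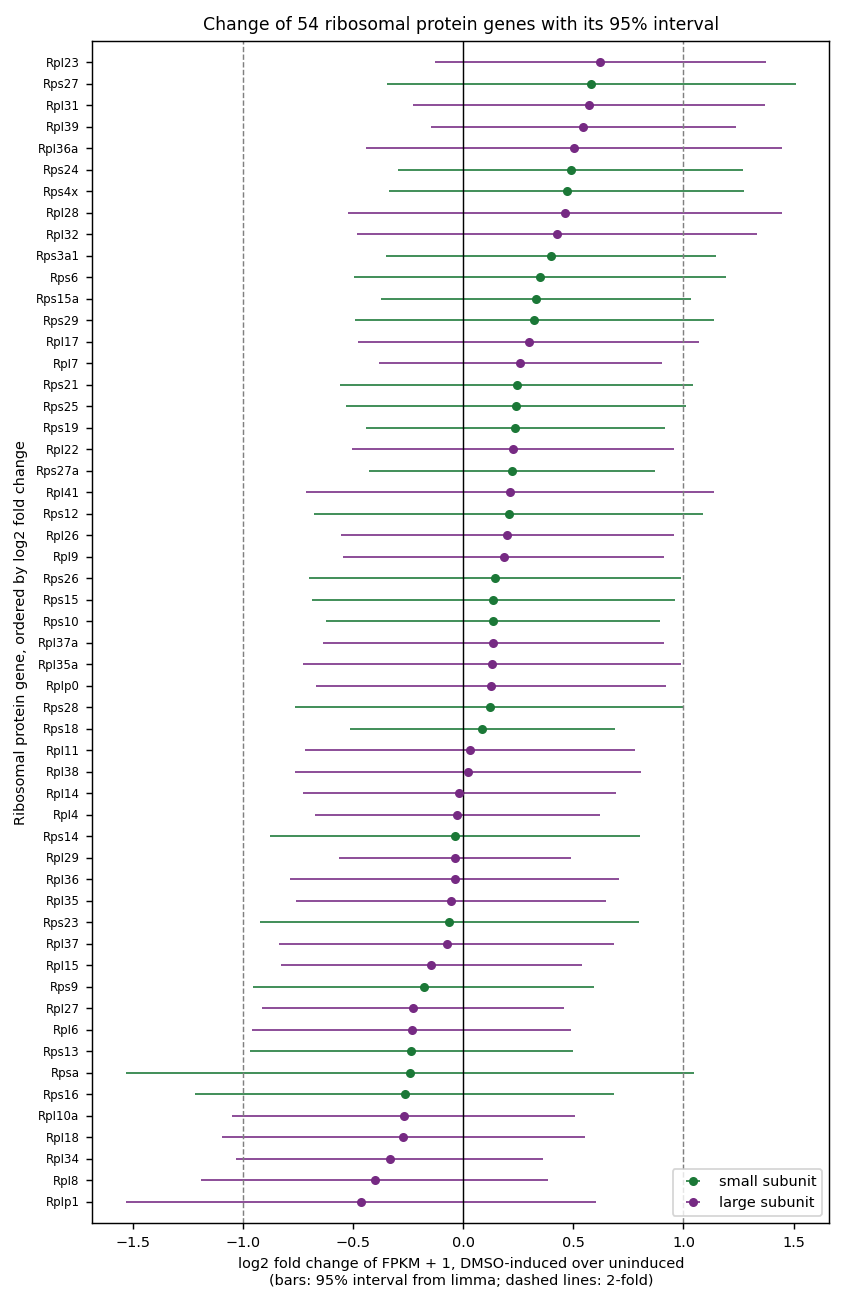
log2 fold change of FPKM + 1 in DMSO-induced over uninduced cells for 54 ribosomal protein genes, with the 95% interval from limma (bars) and dashed lines at 2-fold. All points lie between -0.46 and 0.62, and every interval includes 0.

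Ordered by the change, Rpl23 was highest. Rpl23 lies on the face of the large subunit where the assembly factor eIF6 binds, and its free protein can bind MDM2, the ubiquitin ligase of p53. It had 1019 and 1485 FPKM in DMSO-induced cells, against 758 and 840 FPKM in uninduced cells. Both induced values were above both uninduced ones, and the log2 change was 0.62 ± 0.29 (SE). Rps27, a zinc-finger protein of the small subunit, had 3837 and 5526 FPKM in DMSO-induced cells, against 2750 and 3442 FPKM in uninduced cells. Its groups did not overlap either, but the 95% interval of its log2 change of 0.58 ran from -0.35 to 1.51 (adjusted p = 0.275, limma). Rpl31 had 1471 and 2127 FPKM in DMSO-induced cells, against 1090 and 1301 FPKM in uninduced cells (log2 change 0.57 ± 0.31, SE). Rpl39, a small protein of the exit tunnel, had 1193 and 1211 FPKM in DMSO-induced cells, against 710 and 954 FPKM in uninduced cells (0.55 ± 0.27, SE). In all 4 genes the induced samples were above the uninduced ones, and the difference did not pass the test.

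At the other end, after Rplp1 (log2 change -0.46 ± 0.42, SE), stood Rpl8 and Rpl34 among others. Rpl8, a protein close to the peptidyl transferase centre, had 2329 and 2775 FPKM in DMSO-induced cells, against 3138 and 3599 FPKM in uninduced cells. Its log2 change was -0.40 ± 0.31 (SE; adjusted p = 0.361, limma). Rpl34 had 1647 and 1805 FPKM in DMSO-induced cells, against 2079 and 2268 FPKM in uninduced cells. For both genes the 2 induced samples were below the 2 uninduced samples, and again no change passed the test.

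The induced values lay wholly above the uninduced ones in 16 members and wholly below in 6, while 36 overlapped. Over all loci tested, 36.1% lay wholly above and 34.7% wholly below, or 70.8% in either direction. Of the 16, 10 were small-subunit genes, among them Rps3a1, Rps4x, Rps6, Rps15a, Rps19, Rps24, Rps27, Rps27a and Rps29, and 6 were large-subunit genes (Rpl7, Rpl23, Rpl31, Rpl32, Rpl36a and Rpl39). Of the 6 below, 5 were of the large subunit (Rplp1, Rpl8, Rpl18, Rpl27 and Rpl34). The median log2 change was 0.17 (SD 0.25) over the 26 small-subunit genes and 0.08 (SD 0.29) over the 32 large-subunit genes. The difference between subunits was not tested. Between the start and end of 14 members, on the same strand, lie annotated small nucleolar RNA genes. The median log2 change of these 14 was 0.07, beside 0.14 for the other 44. The 17 members with a pyrimidine run near the annotated start had a median of 0.14 (range -0.27 to 0.58), and the 27 without one had 0.14 (range -0.33 to 0.62).

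Several members have roles beyond their place in the subunit. Of the stalk, Rplp0, the base on which the P1 and P2 dimers sit, had 2283 and 2988 FPKM in DMSO-induced cells, against 2261 and 2531 FPKM in uninduced cells. Its partner Rplp2, in a shared locus, had 1530 and 2033 FPKM in DMSO-induced cells, against 1353 and 1759 FPKM in uninduced cells. Their log2 changes, 0.13 and 0.19, stood beside -0.46 for Rplp1, and no member of the stalk passed the test. Rpl11 forms with Rpl5 and 5S ribosomal RNA a particle that can bind MDM2 and so stabilise p53. Rpl11 had 1208 and 1557 FPKM in DMSO-induced cells, against 1197 and 1506 FPKM in uninduced cells. Rpl5, in a shared locus, had 1280 and 1716 FPKM in DMSO-induced cells, against 1059 and 1067 FPKM in uninduced cells. Rpl11 overlapped between the groups and Rpl5 did not, with log2 changes of 0.03 and 0.48 ± 0.28 (SE).

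Of 19 genes of inherited red cell aplasia in the list, 17 had a locus of their own. None of the 17 was called, their median log2 change was 0.14, and 7 lay wholly above and 2 wholly below the uninduced values, beside 36.1% and 34.7% of all loci. Rps19, the gene most often mutated in Diamond-Blackfan anemia, had 1765 and 1911 FPKM in DMSO-induced cells, against 1491 and 1628 FPKM in uninduced cells. The groups did not overlap, and the log2 change was 0.24 ± 0.27 (SE). Rps14, the gene of the 5q- syndrome, had 2843 and 3825 FPKM in DMSO-induced cells, against 3316 and 3447 FPKM in uninduced cells. Rps26 had 2571 and 3569 FPKM in DMSO-induced cells, against 2580 and 2919 FPKM in uninduced cells. In Rps14 and Rps26 the 2 induced samples enclosed the uninduced ones. Rpl35a, another gene of the anemia, had 1881 and 2766 FPKM in DMSO-induced cells, against 1890 and 2296 FPKM in uninduced cells.

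Rps6 is phosphorylated by S6 kinase downstream of mTOR. It had 2321 and 3390 FPKM in DMSO-induced cells, against 2129 and 2283 FPKM in uninduced cells, with a log2 change of 0.35 ± 0.33 (SE). Rps27a is made as a fusion to ubiquitin and had 1202 and 1274 FPKM in DMSO-induced cells, against 978 and 1152 FPKM in uninduced cells. In both genes the groups were separate and the change did not pass the test. Rpsa, which also serves as a laminin receptor, had 1948 and 3707 FPKM in DMSO-induced cells, against 2300 and 4389 FPKM in uninduced cells. Its spread between replicates was the largest of the members in each group, almost the same in both groups (0.93 on the log2 scale each), and its SE of 0.50 was the highest. Rpl28 had 1703 and 2991 FPKM in DMSO-induced cells, against 1450 and 1853 FPKM in uninduced cells, a log2 difference of 0.81 between the induced replicates.

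The members shared a difference between replicates. In DMSO-induced cells all 58 were higher in replicate 2 than in replicate 1, with a median log2 difference of 0.36 (SD 0.17). In uninduced cells 53 of 58 (91.4%) were higher in replicate 2, with a median of 0.20 (SD 0.21). Over all loci tested, 52.9% were higher in replicate 2 of the induced pair (median 0.03) and 43.0% in replicate 2 of the uninduced pair (median -0.07). The replicate difference shared by the members was therefore larger than their median change with DMSO, 0.14. Induced replicate 1 was also the library with the highest share of the nuclear RNA Rn7sk, 18.7% of its summed FPKM, while induced replicate 2 listed Rn7sk at 0. The uninduced replicates had 8.84% and 12.8%. The part of Rn7sk in the replicate difference of single genes was not tested.

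The order of the members was similar in separate pairs of samples. The difference of DMSO-induced 1 minus uninduced 1 and that of DMSO-induced 2 minus uninduced 2 share no sample, and across the 58 genes they had a Pearson r of 0.73. Paired the other way, the r was 0.49. Over all 12890 loci the values were 0.75 and 0.66. Genes are not independent replicates, and each difference includes the technical properties of its libraries, so these are descriptions. In both pairs Rpl23, Rps27 and Rpl31 were among the higher and Rplp1 and Rpl8 among the lower.

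**Figure D3:**
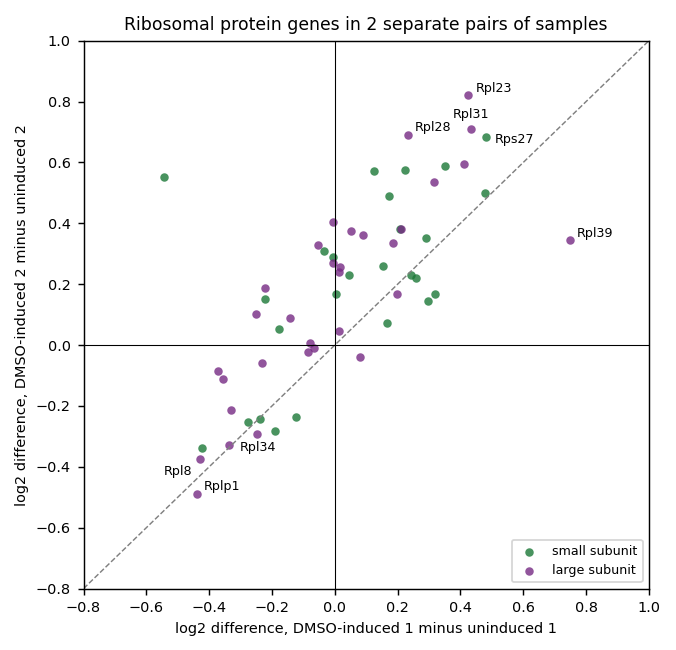
log2 difference of each of 58 ribosomal protein genes between DMSO-induced 1 and uninduced 1 (x axis) and between DMSO-induced 2 and uninduced 2 (y axis), with a dashed line where both are equal. Most points lie along and above the line (r = 0.73 across genes), with 1 gene at the upper left and Rpl39 at the right away from it.

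The order of the changes went with the base composition of the transcripts. Median GC content of the transcripts of a locus ran from 45.4% to 60.8% over the members, and the Pearson r of the log2 change with GC content was -0.41 (n = 58 genes). It was -0.38 in the pair of replicates numbered 1 and -0.39 in the pair numbered 2. The 19 members of lowest GC (45.4% to 50.7%) had a median log2 change of 0.23, with 15 above 0. The 19 of highest GC (54.0% to 60.8%) had a median of -0.04, with 9 above 0. The same r was -0.60 over the 18 ribosomal protein genes in shared loci, -0.19 over 10774 loci of the table and -0.16 over 451 loci of at least 200 FPKM. For a shared locus, transcripts of the other genes there also entered the median GC content. Within the groups, the replicate difference of the members had an r with GC of -0.04 in DMSO-induced cells and 0.05 in uninduced cells. Over the table as a whole these were 0.20 and 0.40, so libraries of 1 group also differed with GC content. With transcript length the members' r was -0.22. The part of GC content in any member's change was not tested.

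**Figure D4:**
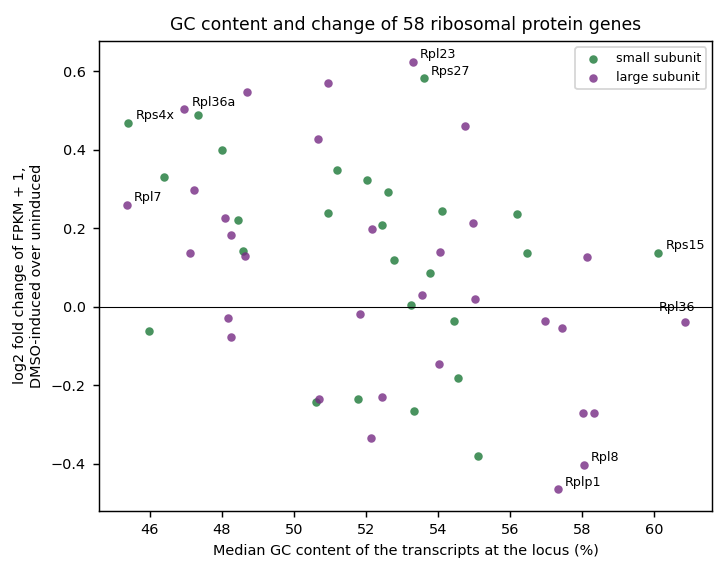
log2 fold change of FPKM + 1 in DMSO-induced over uninduced cells (y axis) against the median GC content in % of the transcripts at the locus (x axis) for 58 ribosomal protein genes. The points slope downward (r = -0.41 across genes), with Rps4x and Rpl36a at the upper left and Rplp1 and Rpl8 at the lower right.

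Together the 58 members held 9.64% and 14.1% of the summed FPKM in DMSO-induced replicates 1 and 2, against 11.3% and 10.5% in uninduced replicates 1 and 2. The means were 11.9% ± 3.17 and 10.9% ± 0.59 (SD, n = 2 each). One induced sample lay below and the other above both uninduced samples, and without DMSO-induced replicate 2 the difference of 1.00 percentage points became -1.25. With globins and every locus among the 10 most abundant of any sample left out, 1 member, Rplp1, was left out as well. The shares of the remaining members were then 15.5% and 18.9% in DMSO-induced cells, against 14.3% and 14.8% in uninduced cells. The difference was 2.65 percentage points, with both induced samples above both uninduced ones. The scaling named below left out the same loci. With Rn7sk left out of the total, a choice made after its values were seen, the shares were 11.9% and 14.1% in DMSO-induced cells, against 12.4% and 12% in uninduced cells. Among protein-coding loci outside the mitochondrial genome they were 18.7% and 21.0% in DMSO-induced cells, against 19.3% and 19.2% in uninduced cells. Over the same samples the globin genes made up 4.56% and 9.89% of the summed FPKM in DMSO-induced cells, against 0.0734% and 0.0822% in uninduced cells.

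Ribosomal protein genes outside the rule were read from shared loci or under other symbols. Of 18 in shared loci, 0 were called, 4 lay wholly above and 3 wholly below the uninduced values. Over all loci tested, 26.2% were called, 36.1% lay wholly above and 34.7% wholly below. The log2 changes of the 18 had a median of 0.10 and ran from -0.40 for Rpl12 to 0.48 for Rpl5. Rpl3, which reaches towards the peptidyl transferase centre, had a log2 change of -0.17 ± 0.27 (SE). Rpl10, which joins last during assembly of the large subunit, had 3544 and 3687 FPKM in DMSO-induced cells, against 4014 and 4522 FPKM in uninduced cells. The value of such a locus includes any reads of the genes that share it. Fau, whose product carries Rps30 fused to a ubiquitin-like protein, had 1810 and 2496 FPKM in DMSO-induced cells, against 1718 and 2373 FPKM in uninduced cells. Gnb2l1, the scaffold protein RACK1 of the small subunit, had a log2 change of -0.09. The second Rps10 locus was of another order, with 1.29 and 0 FPKM in DMSO-induced cells, against 2.44 and 5.0 FPKM in uninduced cells, and was not called (adjusted p = 0.0697, limma).

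Some ribosomal proteins have a paralog that is a gene of its own. Rpl22l1, which can take the place of Rpl22 in the ribosome and is repressed by Rpl22 in mouse cells, fell. It had 74.5 and 66.0 FPKM in DMSO-induced cells, against 135.6 and 136.5 FPKM in uninduced cells, with a log2 change of -0.95 ± 0.19 (SE; adjusted p = 0.0261, limma). Rpl22 had 947 and 1314 FPKM in DMSO-induced cells, against 889 and 1021 FPKM in uninduced cells. The call of Rpl22l1 was not kept without any 1 of the 4 samples: its adjusted p was 0.0899 without DMSO-induced replicate 1, 0.15 without DMSO-induced replicate 2, 0.0830 without uninduced replicate 1 and 0.0967 without uninduced replicate 2 (limma). Each such fit leaves 1 group with a single sample, which is assumed to vary like the other group, and called 14 to 486 of the 12890 loci. The log2 change of Rpl22l1 was -1.03 to -0.86 in these fits, about as large as with all samples. Its adjusted p was 0.0563 with quantile scaling, 0.0624 with no filter and 0.0637 relative to the mean of the 58 members.

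Rpl36al had 620 and 574 FPKM in DMSO-induced cells, against 1035 and 850 FPKM in uninduced cells (log2 change -0.65 ± 0.24, SE; adjusted p = 0.105, limma). Rps27l, a paralog of Rps27 and in human cells a p53 target, had 481 and 406 FPKM in DMSO-induced cells, against 593 and 578 FPKM in uninduced cells (-0.41 ± 0.22, SE). Both lay wholly below the uninduced values, while their parents Rpl36a and Rps27 lay wholly above. Rpl22l1 stood at 7.87% and 5.02% of the level of Rpl22 in DMSO-induced cells, against 15.2% and 13.4% in uninduced cells. Rps27l stood at 12.5% and 7.34% of Rps27 in DMSO-induced cells, against 21.6% and 16.8% in uninduced cells. Rpl36al stood at 11.6% and 7.87% of Rpl36a in DMSO-induced cells, against 25.7% and 17.6% in uninduced cells. In these 3 pairs both induced ratios were below both uninduced ratios. For Rpl7l1 the ratio to Rpl7 was 4.37% and 4.67% in DMSO-induced cells, against 6.42% and 5.53% in uninduced cells. Rps3a2, a copy of Rps3a1, stood at 16.5% and 11.8% of Rps3a1 in DMSO-induced cells, against 14% and 12.8% in uninduced cells, and here the groups overlapped (exact two-sided permutation p = 1.0). The exact two-sided permutation test on each of the other 4 log ratios gave p = 0.333, the smallest that 2 samples against 2 allow. Of 8 listed paralogs, 4 passed the filter, and 1 of the 4 (25.0%) was called, a share close to the 26.2% of all loci called in either direction. The tissue-restricted paralogs Rpl10l, Rpl39l and Rpl3l were listed at 0 or under 1 FPKM in all 4 samples. So was Rps4l, which is annotated as a transcribed processed pseudogene. Rps3a2, annotated as a processed pseudogene, had 354 and 325 FPKM in DMSO-induced cells, against 257 and 237 FPKM in uninduced cells, and was not called.

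Other genes of ribosome production were counted in the same fit. Dedicated chaperones bind newly made ribosomal proteins before assembly. Of 9 genes listed as such, a role not checked gene by gene, 4 fell and 0 rose (44.4% called, median log2 change -0.94). All 9 lay wholly below the uninduced values. Over all loci 14.7% were called lower and 34.7% lay wholly below. Grwd1, whose yeast homologue is the chaperone of Rpl3, had 9.59 and 5.29 FPKM in DMSO-induced cells, against 46.4 and 32.2 FPKM in uninduced cells (log2 change -2.28 ± 0.34, SE; adjusted p = 0.0168, limma). Heatr3, an import factor of Rpl5, had 10.7 and 7.53 FPKM in DMSO-induced cells, against 39.9 and 36.8 FPKM in uninduced cells (log2 change -1.98 ± 0.23, SE). Ltv1, which in yeast binds Rps3 during assembly, had 5.79 and 3.38 FPKM in DMSO-induced cells, against 12.8 and 9.54 FPKM in uninduced cells. Tsr2, the chaperone of Rps26 and itself a gene of Diamond-Blackfan anemia, had 19.7 and 20.6 FPKM in DMSO-induced cells, against 36.7 and 42.7 FPKM in uninduced cells. Rps26 itself was not called. The calls of Ltv1 and Tsr2 were the least firm of the 4. Relative to the mean of the members their adjusted p was 0.0982 and 0.0556 (limma), and that of Grwd1 and Heatr3 was 0.0233 and 0.0195. Of the 9 chaperones, 2 were called relative to the mean of the members, where 15.3% of all loci were called. With the replicate number as a block, 7 chaperones were called, beside 4238 of the 12890 loci. Beside 3509 of 9840 loci called among protein-coding loci only, 7 chaperones were called. Without DMSO-induced replicate 1, 2 were called, and without any other 1 sample 0.

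Of 12 regulators of TOP mRNAs, 2 fell and 0 rose (16.7% called, median 0.01), beside 14.7% of all loci called lower. Larp1, the protein that binds the TOP motif, had 13.2 and 10.8 FPKM in DMSO-induced cells, against 30.4 and 23.6 FPKM in uninduced cells (log2 change -1.11 ± 0.23, SE; adjusted p = 0.0287, limma). Eif4ebp1, an inhibitor of cap-dependent translation that mTOR phosphorylates, had 53.1 and 43.3 FPKM in DMSO-induced cells, against 146 and 212 FPKM in uninduced cells (log2 change -1.85 ± 0.26, SE). Mtor, Rptor and Rps6kb1 were not called. Of 7 transcription factors of ribosomal protein genes, 1 fell (14.3%, median -0.27), also close to the share of all loci. It was Myc, with 12.7 and 11.5 FPKM in DMSO-induced cells, against 33.0 and 34.6 FPKM in uninduced cells (log2 change -1.41 ± 0.19, SE; adjusted p = 0.0144, limma). Gabpa, which binds the CCGGAAG core, its partner Gabpb1 and Yy1 were not called. In the fits without 1 sample, each of which lost these 3 calls, the adjusted p was 0.0860 to 0.165 for Larp1, 0.0575 to 0.0994 for Eif4ebp1 and 0.0627 to 0.101 for Myc (limma). With 1 group at a single sample, their log2 changes stayed at -1.28 to -0.93 for Larp1, -2.12 to -1.59 for Eif4ebp1 and -1.47 to -1.35 for Myc. The adjusted p of Larp1 was also 0.0690 relative to the mean of the members.

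A further list held other genes with TOP mRNAs, most of them of translation, whose start sequences were not examined here. Of its 20 genes tested, 1 fell (5.0% called), beside 14.7% of all loci called lower. Their median log2 change was -0.26, and 6 lay wholly below and 2 wholly above the uninduced values. Over all loci 34.7% lay wholly below and 36.1% wholly above. The gene called was Eif3l, a subunit of initiation factor 3, with 98.9 and 106 FPKM in DMSO-induced cells, against 204 and 185 FPKM in uninduced cells (log2 change -0.92 ± 0.19, SE; adjusted p = 0.0287, limma). Its adjusted p was 0.0907 to 0.135 without 1 sample, with 1 group then at a single sample and a log2 change of -0.99 to -0.85, and 0.0579 relative to the mean of the members (limma). Tpt1, a translationally controlled TOP mRNA, had 542 and 698 FPKM in DMSO-induced cells, against 343 and 344 FPKM in uninduced cells (log2 change 0.84 ± 0.24, SE; adjusted p = 0.0564, limma). Npm1, a nucleolar chaperone, had 358 and 205 FPKM in DMSO-induced cells, against 805 and 430 FPKM in uninduced cells, and was not called.

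The counts of assembly factors and mitochondrial ribosomal proteins stand beside 14.7% of all loci called lower. In the small-subunit processome, which assembles the small subunit on the ribosomal RNA precursor, 22 of 27 tested genes fell and 0 rose (81.5% called, median log2 change -1.26). Rrp9 averaged 16.2 ± 3.84 FPKM in DMSO-induced cells and 115 ± 3.25 FPKM in uninduced cells (SD, n = 2 each). Of 35 assembly factors of the large subunit, 25 fell and 0 rose (71.4%, median -1.32). Nop2, a ribosomal RNA methyltransferase, averaged 23.8 ± 3.15 FPKM in DMSO-induced cells and 105 ± 0.81 FPKM in uninduced cells (SD, n = 2 each). Of 72 mitochondrial ribosomal proteins, whose ribosome is separate from the cytosolic one, 33 fell and 0 rose (45.8%, median -0.76). That count was 18 with scaling that left out globins and the 10 most abundant loci and 17 relative to the mean of the members, and with quantile scaling 24 fell and 2 rose. The differences between these lists and the 58 members were not tested. Most of these calls were lost when 1 group was left with a single sample. Without DMSO-induced replicate 1, 4 genes of the processome, 8 large-subunit assembly factors, 3 mitochondrial ribosomal proteins and 2 chaperones were called lower, and without DMSO-induced replicate 2, uninduced replicate 1 or uninduced replicate 2 none was. The medians of the lists kept their sign, between -1.42 and -1.16 for the processome and between -1.55 and -1.22 for the large-subunit factors. Of the 13 called genes chosen by the naming rule, which are those above with Fbl and Wdr12 added, 6 kept their call without DMSO-induced replicate 1 and 0 without any other 1 sample, with adjusted p from 0.0623 to 0.233 in those fits (limma). With no filter on low values, which left 30 calls among 26323 loci, all 13 calls were lost (adjusted p 0.0568 to 0.131, limma).

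**Figure D5:**
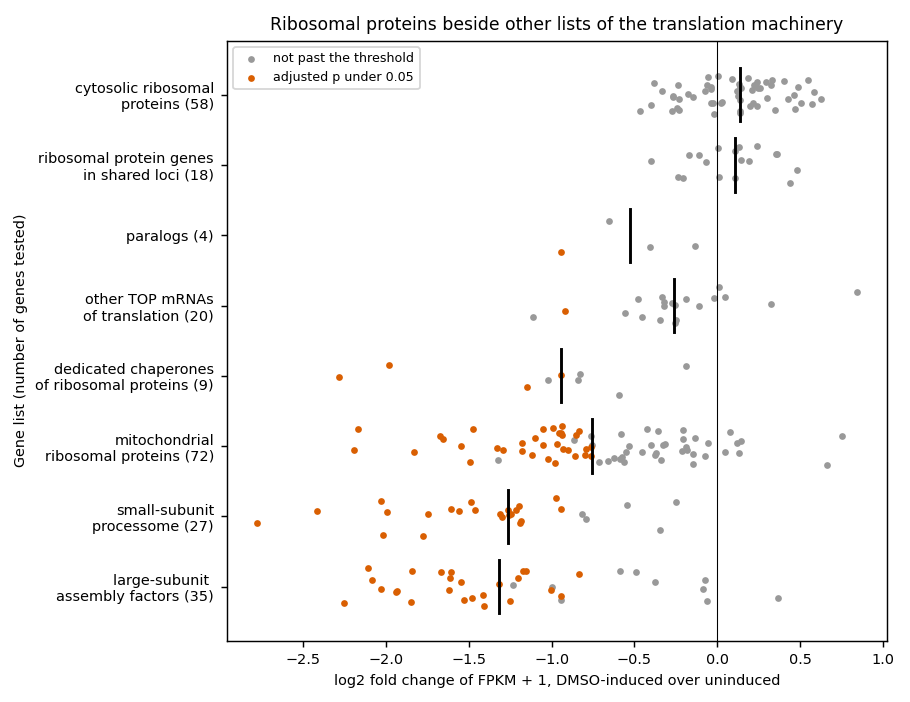
log2 fold change of FPKM + 1 in DMSO-induced over uninduced cells for each tested gene of 8 lists (orange, adjusted p under 0.05; grey, not past it; black bar, median of the list). The 58 ribosomal proteins and the 18 in shared loci have no orange point and medians of 0.14 and 0.10, while the 2 lists of assembly factors have medians of -1.26 and -1.32.

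The identity of the cells was checked with marker genes. All 7 erythroid markers had at least 1 FPKM in all 4 samples, and their sum was 2698 to 4923 FPKM in DMSO-induced cells, against 606 to 726 FPKM in uninduced cells. Of 16 markers of fibroblasts, lymphocytes, epithelium, megakaryocytes and myeloid cells, 13 were under 1 FPKM in all samples, with Dcn and Elane at 0. Their sum was 112 to 144 FPKM in DMSO-induced cells, against 204 to 335 FPKM in uninduced cells. The megakaryocyte gene Pf4 made up most of it, with 106 and 138 FPKM in DMSO-induced cells, against 198 and 329 FPKM in uninduced cells. The steps between the lowest values gave a relative depth of 0.67 and 0.74 for the DMSO-induced libraries and 0.93 and 1.00 for the uninduced ones, provided values were scaled to library totals alone.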

How the data were processed

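RNA of 4 MEL samples (2 DMSO-induced, 2 uninduced, grouped by their titles) was extracted with Trizol and depleted of ribosomal RNA, per the labels' protocols. TopHat2 and GRCm38 were used, per the submitters' processing notes. The sources used here do not give the quantifier, annotation release, strand setting or read totals. The authors' deposited table holds 1 FPKM column per sample, and the unit was inferred from its values and, per the file headers, from columns of the Cufflinks type. No counts could be recovered, so no count model was used.

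The 12890 loci that reached 1 FPKM in 2 or more samples were tested on log2(FPKM + 1), which understates changes of low genes, with limma 3.58.1 in R 4.3.3 (trend, group as the only term), adjusted by Benjamini-Hochberg over all of them at 0.05. SEs and 95% intervals are limma's. The fit was tested on simulated data drawn independently for each locus with the fit's own spread, where it called 74.2% of 2-fold changes. That simulation holds no replicate difference shared by many genes, such as the members had, so it does not show the recovery in these data. GC content, length and gene positions came from GENCODE M21, matched for 43405 loci. Promoters came from RefSeq. The members and the gene lists were chosen with earlier results of these data known. Named genes were the members of highest and lowest mean level, of highest and lowest change and of largest replicate difference, a set of functional interest and the most changed called genes of each list. Rpl12, Rpl22, Rps3a2, the members separated between groups and the uncalled genes of the lists were named after their values were seen. Some genes are counted but not reported by name here, in the text and figures.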

Additional observations from a re-analysis of the deposited data

How the results depend on the processing

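None of the 58 members was called in any of 14 alternative fits, and their smallest adjusted p ran from 0.0772 (quantile scaling) to 0.412 (without DMSO-induced replicate 2; limma). At an unadjusted p of 0.05, 2 passed with quantile scaling, 2 with scaling that left out globins and the 10 most abundant loci, and 1 when only protein-coding loci were fitted. The loci called higher and lower over the table numbered 1478 and 1899, against 7 and 23 with no filter on low values, 622 higher relative to the mean of the members, and 0 to 180 higher and 14 to 306 lower when 1 sample was left out. Scaling with globins and the 10 most abundant loci left out moved the median of all loci to 0.11 and that of the members to 0.23. The median of the members ran from -0.083 to 0.31 over the fits without 1 sample. The labels do not say whether a replicate number marks a shared culture or day. Same-numbered samples deviated together with an r of 0.17 across loci. With the replicate number as a block, 0 members and 4238 loci were called (1939 higher, 2299 lower), and 43 members had intervals within 2-fold.

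Small log2 changes turned sign. With quantile scaling Rps12 was at -0.044, Rpl41 at -0.0089, Rpl29 at 0.23, Rpl35 at 0.059 and Rpl7l1 at 0.11. With scaling that left out globins and the 10 most abundant loci, Rpl29 was at 0.061, Rpl35 at 0.043, Rps14 at 0.062 and Gnb2l1 at 0.0094. With median-of-ratios scaling Rpl11 was at -0.0084. Relative to the mean of the members, Rps18 was at -0.018, Rpl11 at -0.075 and Fau at -0.031. Without 1 sample, the log2 change ran from -0.024 to 0.45 for Rpl41, -0.14 to 0.063 for Rpl29, -0.064 to 0.24 for Rps18, -0.24 to 0.13 for Rpl35, -0.71 to 0.22 for Rpsa, -0.068 to 0.32 for Rplp0, -0.25 to 0.18 for Rps14, -0.094 to 0.38 for Rps26, -0.15 to 0.41 for Rpl35a, -0.15 to 0.21 for Rpl11, -0.011 to 0.40 for Rplp2, -0.31 to 0.13 for Gnb2l1, -0.28 to 0.0059 for Rpl7l1, -0.16 to 0.31 for Fau and -0.0086 to 0.46 for Rpl22. The cause was not tested.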

Other observations

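The table also lists 253 loci named as pseudogenes of ribosomal proteins. Of these, 125 were at 0 in all 4 samples and 26 had at least 1 FPKM in all of them. Their summed level was 2594 and 3132 FPKM in DMSO-induced cells, against 3004 and 3355 FPKM in uninduced cells, which is 2.16% and 2.01% of the members' sum in DMSO-induced cells and 2.52% and 2.42% in uninduced cells. Rpsa-ps10 held most of it, with 1500 and 1807 FPKM in DMSO-induced cells, against 1803 and 1937 FPKM in uninduced cells. The table does not show how reads shared by Rpsa and this copy were divided. Of 36 pseudogene loci tested, 1 was called higher (2.78%) and 0 lower. It was Rps27-ps1, with 3.31 and 1.36 FPKM in DMSO-induced cells and listed at 0 in both uninduced samples. It passed the filter through the induced samples alone, which favoured a call in that direction.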
